A study of Mus musculus with 2 samples.

Results

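The genes described here are the small leucine-rich proteoglycans, 10 of the 32287 features in the deposited tables: *Dcn* (decorin), *Bgn* (biglycan), *Lum* (lumican), *Fmod* (fibromodulin), *Ogn* (osteoglycin), *Prelp*, *Aspn* (asporin), *Omd* (osteomodulin), *Podn* (podocan) and *Epyc* (epiphycan). They were chosen by gene symbol, each symbol belonged to 1 feature, and all 10 had UMIs in the analysed cells of both aortas. Single-cell RNA sequencing was done on thoracic aortas of 2 wild-type male mice (1 group, n = 2 aortas). Both were GFPiSMC animals, which carry *Myh11*-CreERT2 and the mT/mG reporter on the C57BL/6J background, were given tamoxifen from the age of 3 weeks (1 mg/d, 5 days), and were analysed at 12 weeks. Cre is driven by *Myh11*, so eGFP marks cells that expressed this gene at the time of tamoxifen, and sorting selected viable single cells of every type. There was no other treatment or genotype, and the comparisons below are therefore between cell types of the same aortas. The study concerns matrix and contractile genes of the aortic wall, and the question asked here is which wall cells carry the proteoglycan transcripts.

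Small leucine-rich proteoglycans are secreted proteins with a short core of leucine-rich repeats, and most carry glycosaminoglycan chains. They bind collagen fibrils, limit fibril growth and bind growth factors, TGF-β among them. Decorin, biglycan and asporin form class I, in which decorin and biglycan carry chondroitin or dermatan sulfate. Lumican, fibromodulin, PRELP and osteomodulin form class II, several of them with keratan sulfate. Osteoglycin and epiphycan belong to class III, and podocan to class V.

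Several of the genes are neighbours in the genome (mouse build GRCm38, GENCODE vM21). *Dcn* (chr10:97479609-97518143, plus strand), *Lum* (chr10:97565128-97572703, plus), the keratocan gene *Kera* and *Epyc* (chr10:97644068-97682454, plus) lie within 202.8 kb. *Aspn* (chr13:49544443-49567565, plus), *Omd* (chr13:49582462-49592822, plus) and *Ogn* (chr13:49608046-49624501, plus) lie with their relative *Ecm2* within 119.7 kb, and all 4 sit inside the span of *Cenpp* on the opposite strand. *Prelp* (chr1:133910304-133921414, minus), *Fmod* (chr1:134037254-134048277, plus) and the opticin gene *Optc* lie within 151.1 kb. *Bgn* (chrX:73483602-73495933, plus) and *Podn* (chr4:108014791-108096445, minus) stand alone, the latter overlapping *Scp2* on the same strand, so that the split of reads between these 2 genes is uncertain. Strand use in the counting was not given in the sources used here, and reads of genes inside *Cenpp* cannot be told from antisense reads. The overlapped genes had a pattern of their own: *Scp2* lay between 170.3 and 279 CPM in all 6 larger cell types, and *Cenpp* reached at most 15.9 CPM, in lymphocytes. CPM (UMIs per 1000000) relates a gene's UMIs to all UMIs of a cell type, and since each UMI is 1 captured 3′ end, CPM values can be set side by side between genes without division by length, although capture may differ from gene to gene.

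To show how the windows before neighbouring members compare with that of a member located elsewhere, the 250 bases before the annotated starts of the 3 neighbours on chromosome 13 and of the widely expressed *Bgn* are given (RefSeq, GRCm38.p6). RefSeq windows were matched for 8 of the 10 genes, with 10 windows in all; *Dcn* and *Lum* were not matched. Capitals mark TATAAA on either strand, which occurred in 12.4% of all 32851 windows and in 2 of the 10 here. The windows lie at chr13:49544193-49544442, chr13:49582212-49582461, chr13:49607765-49608014 and chrX:73483351-73483600, all on the plus strand.
Aspn: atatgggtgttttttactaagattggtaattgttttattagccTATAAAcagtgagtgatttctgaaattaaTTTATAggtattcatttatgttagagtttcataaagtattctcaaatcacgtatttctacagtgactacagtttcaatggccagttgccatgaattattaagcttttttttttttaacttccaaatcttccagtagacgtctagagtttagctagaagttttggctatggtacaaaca
Omd: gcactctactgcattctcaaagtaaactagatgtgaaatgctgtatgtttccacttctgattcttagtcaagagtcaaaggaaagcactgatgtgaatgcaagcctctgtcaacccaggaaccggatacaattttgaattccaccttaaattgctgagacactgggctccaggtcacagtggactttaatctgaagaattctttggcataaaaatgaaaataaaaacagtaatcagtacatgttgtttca
Ogn: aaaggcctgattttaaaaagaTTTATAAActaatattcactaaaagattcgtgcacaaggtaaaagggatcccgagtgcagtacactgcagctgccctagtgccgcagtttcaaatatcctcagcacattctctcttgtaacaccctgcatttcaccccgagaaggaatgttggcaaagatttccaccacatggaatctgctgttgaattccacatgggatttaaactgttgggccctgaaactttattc
Bgn: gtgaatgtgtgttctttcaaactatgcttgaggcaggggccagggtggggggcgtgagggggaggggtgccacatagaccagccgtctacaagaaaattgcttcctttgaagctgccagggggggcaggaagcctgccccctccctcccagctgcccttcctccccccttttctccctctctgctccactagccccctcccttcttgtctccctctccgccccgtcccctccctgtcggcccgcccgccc
In *Aspn* the marked letters begin 207 and 178 bases before the start, and in *Ogn* 2 overlapping matches begin 229 and 227 bases before it. The windows of *Aspn*, *Omd* and *Ogn* held 30%, 38.4% and 42.0% G or C, against 64.4% in that of *Bgn* and a median of 52.4% over all windows (quartiles 45.2% and 61.2%). Neither TGANTCA (6.75% of all windows) nor a CArG box (1.47%) occurred in any of the 10 windows, both strands searched. GGGCGG, present in 32.7% of all windows, occurred in those of *Bgn* and *Podn*. These matches describe the letters of the windows only.

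The files held 8947 and 6263 cells with 47009780 and 30919996 UMIs, and 6539 and 4614 cells with a median of 5671 and 5396.5 UMIs were analysed. Clusters were named from markers that include none of the 10 genes, and the genes were also kept out of the clustering. This gave 2506 fibroblasts, 3312 smooth muscle cells (SMCs), 432 mesothelial cells, 1513 endothelial cells, 1484 myeloid cells, 977 lymphocytes and 35 erythroid cells, while 894 cells stayed unnamed. Fibroblasts carried *Pdgfra* at 471 and 466 CPM, *Dpt* at 1052 and 1154 CPM and *Clec3b* at 3869.9 and 4734 CPM in aortas 1 and 2, whereas SMCs had at most 27.9 CPM of any of them and 4574 and 4257 CPM of *Myh11*. The 2 barcode sets shared 18 barcodes. Lymphocytes are not known as a source of these proteoglycans, and their level is given as the background from free RNA in the droplets.

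As a group, the 10 genes made up 2.41% ± 0.12 (SD, n = 2) of all UMIs of fibroblasts. The corresponding share was 0.759% ± 0.059 in mesothelial cells, 0.388% ± 0.010 in SMCs and 0.332% ± 0.00091 in endothelial cells. In lymphocytes it was 0.0300% and 0.0404% in the 2 aortas, and in myeloid cells 0.0349% and 0.0169%. The make-up of this pool differed by cell type. *Dcn* supplied 64.6% and 65.2% of it in fibroblasts and 72.3% and 76.5% in mesothelial cells, but 6.62% and 6.90% in SMCs. *Bgn* supplied 59.2% and 63.1% in SMCs and 80.0% and 82.7% in endothelial cells, but 10.6% and 10.4% in fibroblasts. *Ogn* took 24.5% and 21.4% of the SMC pool.

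**Figure D1:**
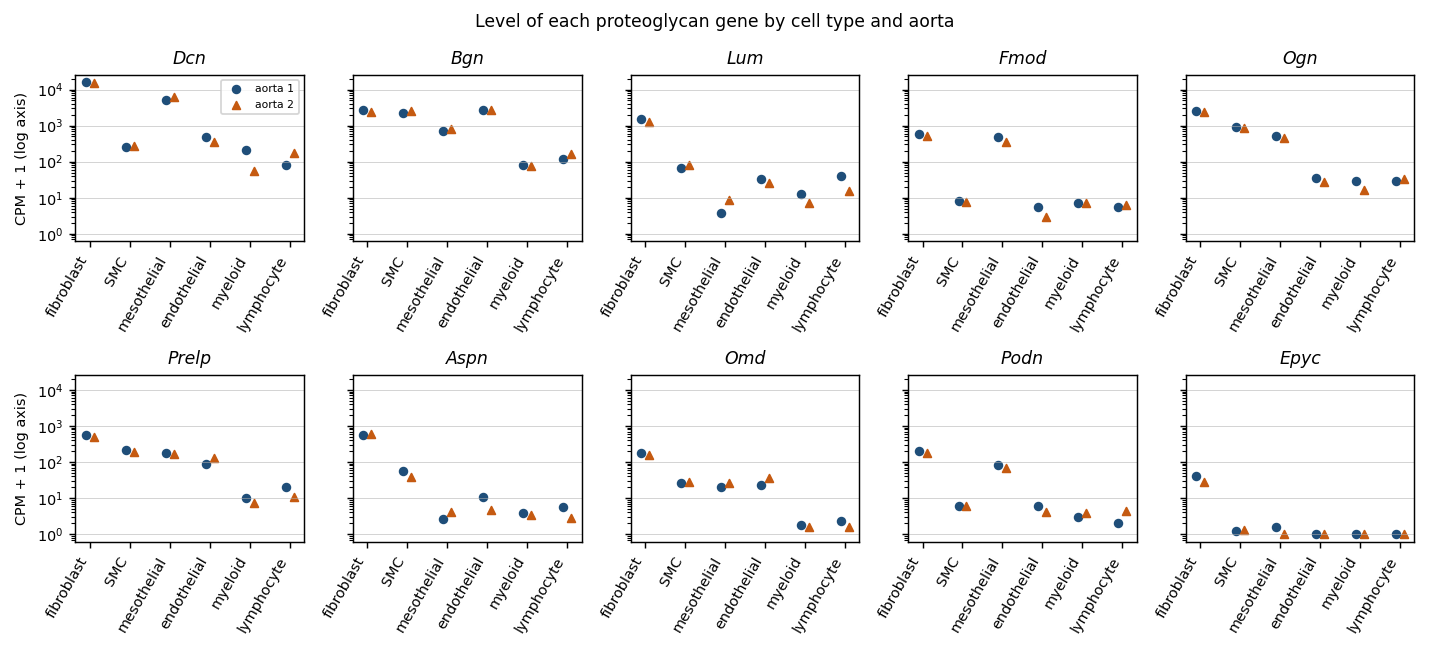
Level of each gene in 6 cell types, as CPM + 1 on a log axis, with 1 point per aorta. *Bgn* lies between 2257 and 2752 CPM in fibroblasts, SMCs and endothelial cells, while *Dcn* spans from 16112 CPM in fibroblasts of aorta 1 to 53.9 CPM in myeloid cells of aorta 2.

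Fibroblasts were compared with SMCs first, as the main matrix cell of the adventitia against that of the media. Of the 10 genes, 9 were higher in fibroblasts and 0 were higher in SMCs, where a call needed an adjusted p under 0.05 together with a log2 fold change beyond 1 in size (edgeR quasi-likelihood test, Benjamini-Hochberg over 13972 genes). Over all genes tested, 16.2% were called higher in fibroblasts and 10.3% higher in SMCs. The count of 0 was also 0 at an unadjusted p under 0.05 and by DESeq2. The median log2 fold change was 3.88 over the 10 genes and 0.09 over all genes.

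In class I, *Dcn* reached 16112 and 15177 CPM in fibroblasts, against 252 and 273 CPM in SMCs. Only 1 other feature had more UMIs in fibroblasts, in each aorta. The log2 fold change was 5.87 ± 0.56 (SE, edgeR adjusted p = 6.65e-09). *Aspn*, which encodes a calcium-binding relative that lacks the chains, lay at 557 and 590.5 CPM in fibroblasts and at 56.7 and 38.4 CPM in SMCs, a log2 fold change of 3.55 ± 0.16 (edgeR adjusted p = 1.88e-14). *Bgn* was the exception. It lay at 2641 and 2414 CPM in fibroblasts and at 2257 and 2495 CPM in SMCs, so the ranges of the 2 cell types overlapped, and the log2 fold change of 0.06 ± 0.20 was not called (edgeR adjusted p = 0.825). Because the sign of this small difference changed with the processing (0.31 with another scaling, -0.066 with a marker gate on each cell), no direction is given for *Bgn*.

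In class II, *Fmod* had the widest separation. It was at 579 and 499 CPM in fibroblasts and at 6.94 and 6.45 CPM in SMCs, close to the 4.38 and 5.12 CPM of lymphocytes, and its log2 fold change was 6.29 ± 0.17 (edgeR adjusted p = 7.22e-18). *Lum* was at 1503 and 1268 CPM in fibroblasts and at 64.8 and 81.5 CPM in SMCs, a log2 fold change of 4.22 ± 0.21 (edgeR adjusted p = 7.58e-14). *Prelp*, whose product binds heparan sulfate and collagen, was at 560.5 and 487 CPM against 208 and 183 CPM in SMCs, with a smaller log2 fold change of 1.39 ± 0.15 (edgeR adjusted p = 5.12e-08). *Omd* had 179 and 159 CPM against 25.1 and 27.5 CPM, a log2 fold change of 2.66 ± 0.13 (edgeR adjusted p = 1.59e-13). In none of these 4 genes did the fibroblast and SMC values overlap.

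Of class III, *Ogn* was a gene of both cell types. Fibroblasts held 2562 and 2459.5 CPM and SMCs 935 and 845 CPM, a log2 fold change of 1.47 ± 0.18 (edgeR adjusted p = 4.22e-07), and the SMC level still exceeded that of every other gene of the family in SMCs except *Bgn*. *Epyc*, best known from cartilage, was rare. Its 365 and 173 UMIs in fibroblasts gave 39.3 and 27.5 CPM, with 3 UMIs in SMCs of each aorta. The fibroblast level was 215.2 times that of SMCs in aorta 1 and 105.3 times in aorta 2. The exact 95% intervals ran from 73.0 to 1048 and from 35.5 to 516 and cover counting error only. *Podn*, of class V, lay at 199.5 and 179.6 CPM in fibroblasts and at 5.05 and 4.97 CPM in SMCs, a log2 fold change of 5.20 ± 0.15 (edgeR adjusted p = 3.47e-17).

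**Figure D2:**
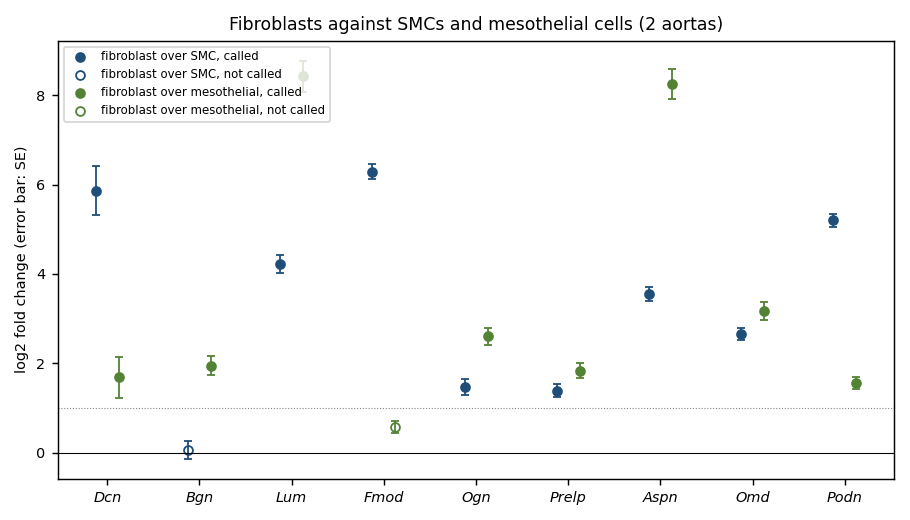
Log2 fold change of fibroblasts over SMCs (blue) and over mesothelial cells (green) for 9 of the genes, with bars for the SE, filled points for called differences and a dotted line at a log2 fold change of 1. *Epyc* is left out because it had at most 3 UMIs per aorta in the other cells. *Bgn* is the open blue point at 0.06 and *Fmod* the open green point at 0.57.

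The share of each gene's UMIs that came from each cell type gives the same data weighted by cell number and depth. Fibroblasts supplied 89.8% ± 0.012 (SD, n = 2) of *Dcn*, 89.5% ± 1.9 of *Lum*, 87.9% ± 0.44 of *Podn*, 85.7% ± 3.3 of *Aspn*, 85.2% ± 2.6 of *Fmod* and 98.2% ± 0.13 of *Epyc*. For *Omd* the share was 72.2% ± 4.7, for *Ogn* 58.1% ± 0.83 and for *Prelp* 53.5% ± 1.7. SMCs supplied 37.0% ± 0.20 of *Ogn* and 35.9% ± 0.052 of *Prelp*. *Bgn* was the 1 gene for which SMCs supplied the most, with 49.4% and 52.7% (exact 95% intervals 49.0 to 49.7 and 52.3 to 53.2), followed by fibroblasts with 32.7% and 27.9% and endothelial cells with 11.3% and 12.8%. These shares depend on how many cells of each type were recovered by digestion and sorting, and counts of UMIs give intervals for counting error only.

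**Figure D3:**
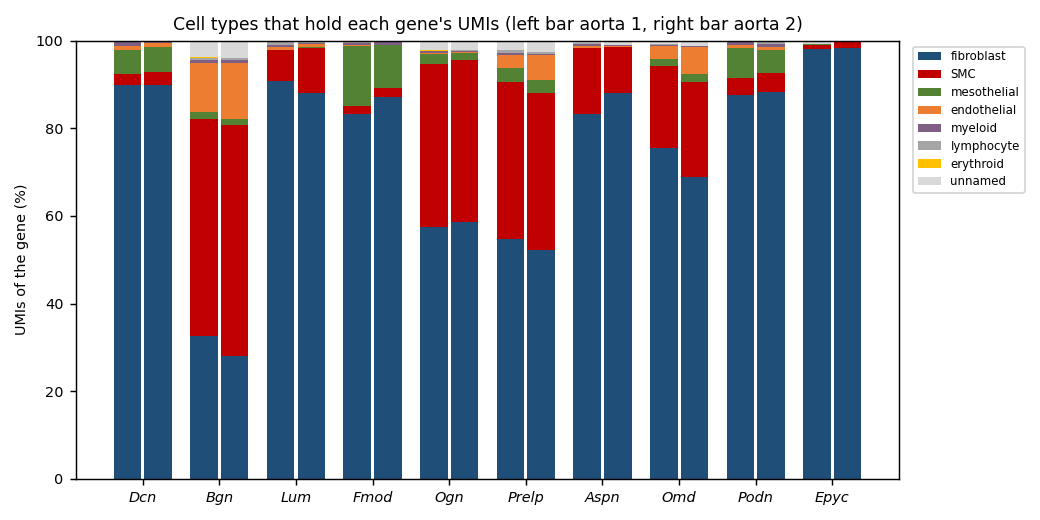
Share of each gene's UMIs, in percent, held by each cell type, with aorta 1 on the left and aorta 2 on the right of each pair. Red (SMC) is the tallest segment for *Bgn* alone, at 49.4% and 52.7%, and blue (fibroblast) for the other 9 genes.

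Detection in single cells followed the levels. After thinning of all cells to 1000 UMIs, which every cell had, *Dcn* was found in 99.3% and 99.1% of fibroblasts (99.7% and 99.7% without thinning). In lymphocytes it was found in 5.02% and 7.80% (18.8% and 15.6% without thinning). Fibroblasts had a median of 5970 and 5752 UMIs and lymphocytes one of 4083 and 3872 UMIs. In SMCs, with a median depth of 8638 and 8226 UMIs, *Dcn* was found in 8.97% and 7.90% (29.1% and 24.7% without thinning). *Bgn* was found in 85.2% and 82.5% of fibroblasts, 85.1% and 86.2% of SMCs and 82.8% and 79.6% of endothelial cells, against 6.80% and 6.13% of lymphocytes. *Ogn* was found in 79.6% and 80.6% of fibroblasts and 51.5% and 48.8% of SMCs, against 2.43% and 2.51% of lymphocytes.

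*Fmod* was found in 28.2% and 26.4% of fibroblasts, and more depth did not bring it near all of them (45.8% and 40.6% without thinning). *Lum* was found in 59.6% and 54.6% (88.1% and 84.9% without thinning), and *Epyc* in 3.78% and 3.02% (7.49% and 6.34%). *Epyc* was found in 0 of 618 and 0 of 359 lymphocytes, which allows shares of up to 0.595% and 1.02% (exact 95% upper bounds, counting error only). These limit cells with a UMI at this depth, not cells expressing the gene. A thinned fibroblast held a UMI of a median of 5 and 4 of the 10 genes, an SMC of 2 and 2 and a lymphocyte of 0 and 0. None of the 10 was found in 0% of fibroblasts of each aorta, 4.80% and 5.58% of SMCs, and 85.9% and 83.8% of lymphocytes.

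Mesothelial cells, the outer lining, were the other cell type rich in these transcripts, with a selection of their own. *Dcn* was at 5193 and 6124 CPM there, *Bgn* at 713 and 818 CPM, *Ogn* at 512 and 445 CPM, *Fmod* at 485 and 351 CPM, *Prelp* at 171 and 168 CPM and *Podn* at 80.2 and 66.4 CPM. *Lum*, with 5 and 8 UMIs, and *Aspn*, with 3 and 3 UMIs, lay at 2.76 and 7.93 CPM and at 1.66 and 2.97 CPM. Lymphocytes had *Lum* at 39.4 and 14.8 CPM and *Aspn* at 4.72 and 1.71 CPM. *Omd* was intermediate at 19.4 and 25.8 CPM.

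Compared with mesothelial cells, 9 of the 10 genes were called higher in fibroblasts and 0 lower, against 13.9% and 10.7% of all genes. The count of 0 was 0 also at an unadjusted p under 0.05 and by DESeq2. *Fmod* was the gene not called, since its log2 fold change of 0.57 ± 0.13 (edgeR adjusted p = 0.00136) was under the fold limit. *Lum* and *Aspn* differed most, with log2 fold changes of 8.43 ± 0.35 and 8.26 ± 0.34 (edgeR adjusted p = 1.11e-14 and 8.38e-15), and the size of the *Aspn* value rests on 3 mesothelial UMIs per aorta. *Dcn* had a log2 fold change of 1.68 ± 0.46 (edgeR adjusted p = 0.00554), which DESeq2 did not call (adjusted p = 0.242). For *Epyc*, with 1 and 0 UMIs in mesothelial cells, the fibroblast level in aorta 2 was at least 9.27-fold higher, taking 3 UMIs per library as the floor.

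Against the lymphocyte background, 7 genes were called higher in mesothelial cells (24% of all genes), and 1, *Lum*, was lower (20.5% of all genes called higher in lymphocytes). The 7 were *Fmod* (log2 fold change 6.22 ± 0.24, edgeR adjusted p = 4.39e-15), *Dcn*, *Podn*, *Omd*, *Ogn*, *Prelp* and *Bgn*. The *Lum* difference was -2.93 ± 0.54 (edgeR adjusted p = 7.71e-05), between 39.4 and 14.8 CPM in lymphocytes and 2.76 and 7.93 CPM in mesothelial cells, and was -0.52 and not called when doublets were kept. *Lum* was uneven over the lymphocyte clusters, at 142 CPM in the B lymphocyte cluster of aorta 1 (131 cells) and 6.33 CPM in that of aorta 2, and at 7.76 and 5.78 CPM in the largest lymphocyte cluster.

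In SMCs, 7 genes were called higher than in lymphocytes and 0 lower, against 26.1% and 21.8% of all genes. 5 of them, *Bgn*, *Ogn*, *Omd*, *Aspn* and *Prelp*, had log2 fold changes of 3.61 to 4.87. The largest was that of *Ogn* (4.87 ± 0.24, edgeR adjusted p = 6.69e-14) and the smallest that of *Prelp* (3.61 ± 0.23, edgeR adjusted p = 5.86e-12). The other two called genes, *Lum* (1.28 ± 0.26, edgeR adjusted p = 0.000137) and *Podn* (1.35 ± 0.44, edgeR adjusted p = 0.0103), were near the limit. *Lum* was not called by DESeq2 (adjusted p = 0.0532), with 5000 to 25000 UMIs per cell, with doublets kept, at either other clustering resolution or without mixed subsets, and *Podn* was not called with doublets kept, at the lower resolution or without mixed subsets. *Dcn*, with a log2 fold change of 1.04 ± 0.49, was not called (edgeR adjusted p = 0.0631), nor were *Fmod* and *Epyc*. With the aorta as a block, as cell types of 1 animal are paired, *Dcn* was called (1.07, edgeR adjusted p = 0.00917). The count at an unadjusted p under 0.05 was 8 higher and 0 lower, and DESeq2 called 6 higher, without *Lum*, and 0 lower.

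The SMC level of *Dcn* and *Lum* came mostly from a minority of cells, as the plot of SMC subsets shows. SMCs were clustered again into 15 subsets, and the 14 with 10 or more cells per aorta are described (3287 of 3312 cells), and subsets are called by their 3 leading genes. Because the subsets were drawn on the same cells, their levels are given without a test. The *Mmp3*, *Fst* and *Serpinf1* subset (230 cells, 7.81% and 5.79% of SMCs) carried *Dcn* at 2869 and 4128 CPM and *Lum* at 732 and 719 CPM. It held 62.5% and 67.0% of all *Dcn* UMIs of SMCs, and 62.1% and 39.0% of their *Lum* UMIs. The *Mme*, *Angptl1* and *Grem1* subset (54 cells) carried *Dcn* at 3797 and 1680.5 CPM and *Lum* at 747 and 1857 CPM. It held 13.1% and 41.7% of the *Lum* UMIs of SMCs, so the subset with the most *Lum* UMIs was not the same in both aortas. A subset led by *Chad*, *Scin* and *Nrn1* (128 cells) had less, with *Dcn* at 424 and 375 CPM and *Lum* at 294 and 323 CPM. *Chad* encodes chondroadherin, another leucine-rich repeat protein.

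Fibroblast markers were present beside SMC markers in the *Mmp3* subset, and *Dpt* was also above its SMC average in both aortas of the *Mme* subset. In the *Mmp3* subset *Dpt* was at 167 and 244 CPM, *Pdgfra* at 78.6 and 76.8 CPM, *Clec3b* at 304 and 368 CPM, *Myh11* at 2085 and 2216 CPM and eGFP at 4511 and 3259.7 CPM. In the *Mme* subset *Dpt* was at 251 and 290.4 CPM, *Pdgfra* at 48.0 and 14.3 CPM, *Clec3b* at 85.3 and 23.8 CPM, *Myh11* at 3626 and 4732 CPM and eGFP at 7599 and 7374 CPM. In aorta 2 the *Pdgfra* and *Clec3b* values of the *Mme* subset were close to those of all SMCs (14.0 and 27.9 CPM). The part of mixed droplets in these values was not tested. SMC subsets with over 100 CPM of *Dpt* and fibroblast subsets with over 500 CPM of *Myh11*, both aortas together, are termed mixed by this limit alone. Without these subsets and 1 mixed fibroblast subset, *Dcn* in SMCs was at 54.9 and 63.3 CPM, below the 82.2 and 174 CPM of lymphocytes as a whole, and its log2 fold change against lymphocytes was -1.09 ± 0.50 (edgeR adjusted p = 0.0572). This background was uneven. In aorta 2 a cluster of 29 lymphocytes led by the cell cycle genes *Hist1h1b* and *Top2a* had *Dcn* at 599 CPM while the other lymphocyte clusters of that aorta had 46.8 to 93.2 CPM. *Lum* was then at 17.2 and 16.7 CPM and its difference from lymphocytes at -0.80 ± 0.28, under the fold limit, and *Podn* was no longer called (0.65 ± 0.49). *Bgn*, *Ogn*, *Prelp*, *Aspn* and *Omd* were still called. Against fibroblasts the log2 fold changes then grew to 8.01 ± 0.61 for *Dcn*, 6.31 ± 0.23 for *Lum* and 7.62 ± 0.20 for *Fmod*. Leaving out SMCs by a fibroblast marker favours larger differences, so these values are not independent support.

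**Figure D4:**
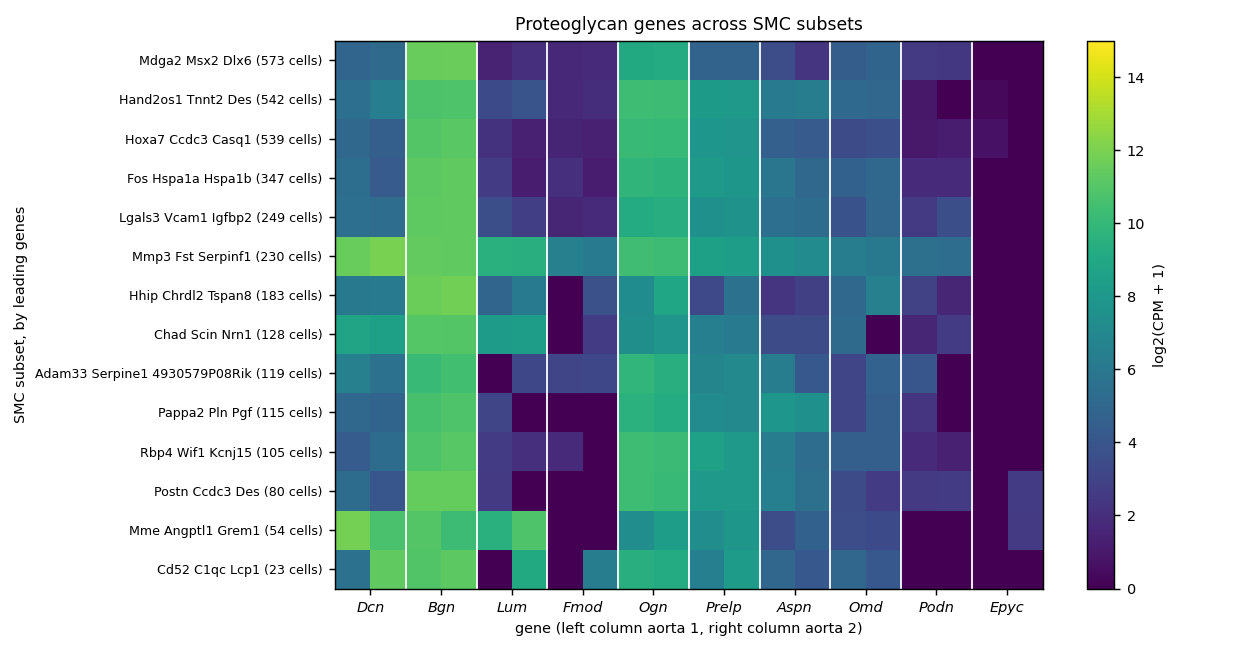
Level of the genes in 14 SMC subsets as log2(CPM + 1), with aorta 1 on the left and aorta 2 on the right of each pair of columns and subsets named by their leading genes. *Bgn* is high in every row (1167 to 3603 CPM), while *Dcn* and *Lum* stand out in the *Mmp3* and *Mme* rows.

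The SMC subsets also differed in the amounts of *Ogn* and *Prelp*. Over all 14 subsets *Bgn* varied least, with means of the 2 aortas from 1277 to 3385 CPM, the highest in the *Hhip*, *Chrdl2* and *Tspan8* subset. *Ogn* ranged from 203 CPM in the *Chad* subset to 1304 CPM in the *Mmp3* subset. It was at 1272 and 1261 CPM in the *Hand2os1*, *Tnnt2* and *Des* subset, which is led by transcripts of the *Hand2* locus and cardiac troponin T, and at 563 and 590.5 CPM in the *Mdga2*, *Msx2* and *Dlx6* subset, whose leading genes include homeobox factors. *Prelp* separated the same pair more widely, with 293 and 262 CPM against 26.0 and 26.4 CPM. *Aspn* was at 75.3 and 81.6 CPM in the former and 10.8 and 3.89 CPM in the latter, whereas *Bgn* was lower in the former, at 1806 and 1905 CPM against 2951 and 3002 CPM. *Aspn* was highest in the *Pappa2*, *Pln* and *Pgf* subset, at 233 and 182 CPM. A subset of 23 cells led by the immune genes *Cd52*, *C1qc* and *Lcp1* had *Dcn* at 49.4 and 2557 CPM in the 2 aortas and *Ptprc* at 69.2 and 99.0 CPM, and is not used further.

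Fibroblasts formed 14 subsets, and the 13 with 10 or more cells per aorta are described (2499 of 2506 cells). *Dcn*, *Bgn*, *Lum*, *Ogn*, *Prelp* and *Aspn* were at a mean of 100 CPM or more in all 13, *Omd* in 11, *Podn* in 10, *Fmod* in 7 and *Epyc* in 1. *Dcn* and *Prelp* were the most even, with the highest subset 3.34 and 3.94 times the lowest. Of the 9 genes other than *Epyc*, *Fmod* was the least even. Its means ran from 5.64 to 1921 CPM, 340.4 times, and 6 subsets were under 100 CPM.

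The *Fmod*-rich subsets were those led by *C1qtnf3* and *Lrrn1* (2056 and 1785 CPM), by *Frzb*, *Flt1* and *Tnmd* (1388 and 1404 CPM), by *Klf5*, *Fhl2* and *Hhip* (866 and 1167 CPM) and by *Cgref1*, *Sfrp2* and *Acp5* (1038 and 752 CPM). These same 4 subsets had *Podn* at 231 to 534 CPM and *Col1a1*, a chain of collagen I, at 13582 to 17923 CPM. The *Dner*, *Gpr39* and *Gpnmb* subset reached similar levels of *Podn* (357 and 371 CPM) and *Col1a1* (13558 and 15413 CPM) with less *Fmod* (479 and 426 CPM). The *Krtdap*, *Akr1c18* and *Aif1l* subset (324 cells) lay at the other end, with *Fmod* at 9.09 and 5.27 CPM, *Podn* at 25.3 and 26.3 CPM, *Bgn* at 611 and 691 CPM, *Lum* at 223 and 327 CPM and *Col1a1* at 1822 and 2288 CPM. *Dcn* stayed at 11692 and 11756 CPM there and *Aspn* at 774 and 629 CPM.

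*Lum* and *Bgn* were both high in the *Lamc3*, *Cytl1* and *Unc5b* subset (3071 and 3007 CPM of *Lum*, 4178 and 4314 CPM of *Bgn*), where *Ogn* was at 1015 and 1233 CPM, low for fibroblasts. *Ogn* was highest in the *C1qtnf3* subset at 5222 and 4511 CPM. *Aspn* was highest in the *Sema3e*, *Sfrp4* and *Fn1* subset at 1209.6 and 1328 CPM, where *Fmod* was at 6.56 and 4.73 CPM. *Podn* was highest in the *Klf5* subset at 534 and 526 CPM. *Epyc* was concentrated in the *Cxcl14*, *Ptn* and *Igfbp3* subset (196 cells), with 208 and 231 CPM and 41.4% and 50.9% of the *Epyc* UMIs of fibroblasts. In the remaining subsets it did not pass 90.3 CPM.

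**Figure D5:**
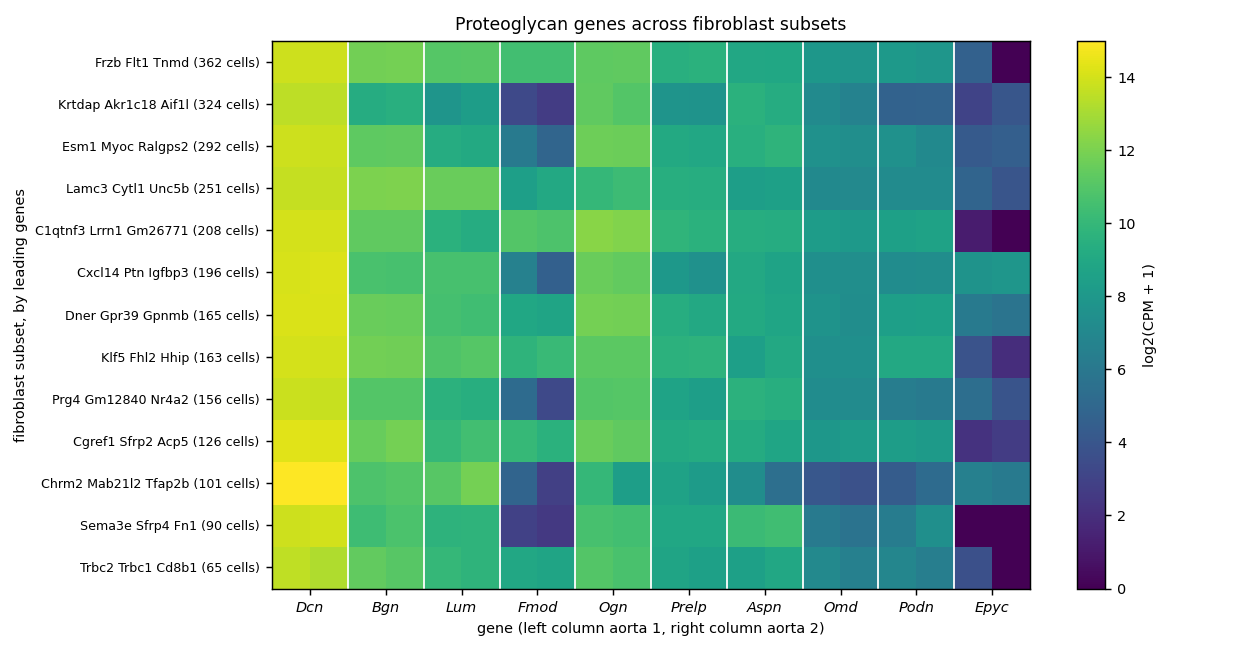
Level of the genes in 13 fibroblast subsets as log2(CPM + 1), with aorta 1 on the left and aorta 2 on the right of each pair of columns. *Dcn* is bright in every row, *Fmod* is dark in the *Krtdap* and *Sema3e* rows (4.73 to 9.09 CPM), and *Epyc* stands out in the *Cxcl14* row (208 and 231 CPM).

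*Dcn* itself peaked in the *Chrm2*, *Mab21l2* and *Tfap2b* subset (101 cells, 80 and 21 by aorta) at 34501 and 37901 CPM. *Lum* was at 2194 and 3683 CPM there, while *Ogn* (1022 and 339.9 CPM), *Aspn* (163 and 43.3 CPM), *Omd* (15.7 and 12.4 CPM) and *Fmod* (27.5 and 6.18 CPM) were low. This subset also carried eGFP at 973 and 816 CPM, *Myh11* at 298 and 117 CPM and *Pecam1* at 167 and 179 CPM, and their part in its levels was not tested. A subset of 65 cells led by T cell receptor genes (*Trbc2*, *Trbc1* and *Cd8b1*) held *Myh11* at 962 and 1012 CPM and *Ptprc* at 71.1 and 83.9 CPM. It had *Dcn* at 12239 and 9449 CPM, and leaving it out together with the *Mmp3* and *Mme* SMC subsets changed no call between fibroblasts and SMCs.

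Endothelial cells expressed *Bgn* at 2653 and 2752 CPM, beside 2257 and 2495 CPM in SMCs and 2641 and 2414 CPM in fibroblasts, which were not tested against them. Against lymphocytes, 4 genes were called higher and 0 lower (24.2% and 18.5% of all genes). They were *Bgn* (log2 fold change 4.07 ± 0.24, edgeR adjusted p = 1.83e-12), *Omd* (4.47 ± 0.45, 2.22e-08), *Prelp* (2.55 ± 0.25, 1.38e-08) and *Dcn* (1.52 ± 0.50, 0.0117). The count at an unadjusted p under 0.05 was 4 higher and 0 lower, and DESeq2 called 3 higher and 0 lower, without *Dcn*. *Dcn* was also not called with a minimum of 5000 UMIs or with doublets kept. *Fmod* was called lower in endothelial cells with a minimum of 5000 UMIs and with doublets kept. *Omd* was low in absolute terms, at 21.3 and 35.2 CPM (68 and 89 UMIs), and the sizes of its fold changes over lymphocytes, in SMCs and mesothelial cells too, rest on 4 and 1 lymphocyte UMIs. Those of *Podn* rest on 3 and 6.

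These averages hid clusters with different genes. In the lymphatic cluster (123 cells, led by *Ccl21a* and *Mmrn1*) *Prelp* reached 967 and 997 CPM, above its level in fibroblasts as a whole, and *Bgn* was at 396 and 288 CPM. In the *Emcn*, *Nrg1* and *Ahsg* cluster (297 cells) *Dcn* was at 1237 and 861 CPM, against 168 and 170.3 CPM in the largest endothelial cluster and 140.3 and 69.8 CPM in the one led by *Adra2a* and *Sema3g*. *Col1a1* was at 64.9 and 39.5 CPM in that *Emcn* cluster, 75.8 and 134 CPM in lymphocytes and 8142 and 8167 CPM in fibroblasts. The part of RNA from other cells in the *Dcn* values of endothelial clusters was not tested. *Bgn* was even across the 3 large clusters, from 2549.9 to 3245 CPM, and lower in the *Gpihbp1* cluster of 88 cells, at 343 and 586 CPM.

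Genes with the most similar pattern were sought over 30 clusters with at least 10 cells in each aorta, by Pearson correlation of log2(CPM + 1) among 9413 genes with a mean of at least 10 CPM. The points share their libraries, and the values are descriptions. *Bgn* was closest to *Pam*, *Htra1* and *Fbln5* (r = 0.966, 0.966 and 0.957), of which the last encodes the elastic fibre protein fibulin-5. *Ogn* was closest to *Slit3*, *Islr* and *Col6a1* (r = 0.955, 0.952 and 0.948). *Dcn* was closest to *Cpxm1*, *Bicc1* and *Pdgfra* (r = 0.921, 0.905 and 0.897), and *Lum* to *Pdgfra*, *Dpt* and *Lama2* (r = 0.909, 0.896 and 0.886). *Podn* was closest to *Pcolce*, *Glt8d2* and *Gli1* (r = 0.915, 0.902 and 0.893).

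Members of the family were among each other's closest genes in a few cases. *Podn* was 1 of the 3 genes closest to *Fmod* (r = 0.835, after *Steap4* and *Pcolce* with 0.848 and 0.836), and *Ogn* 1 of the 3 closest to its neighbour *Aspn* (r = 0.887, after *Ntrk2* and *Islr* with 0.913 and 0.890). The other pairs on chromosome 13 gave r = 0.799 for *Ogn* with *Omd* and 0.779 for *Aspn* with *Omd*. Those values were not particular to neighbours, since pairs from different chromosomes gave 0.865 for *Bgn* with *Omd*, 0.846 for *Prelp* with *Aspn* and 0.833 for *Ogn* with *Prelp*. On chromosome 10, r was 0.856 for *Dcn* with *Lum*, 0.801 for *Dcn* with *Epyc* and 0.794 for *Lum* with *Epyc*, and on chromosome 1 it was 0.433 for *Fmod* with *Prelp*. *Prelp* was closest to *Cys1*, *Rhobtb3* and *Bmp1* (r = 0.926, 0.915 and 0.893), and *Omd* to *Rian*, *Zfpm2* and *Col5a1* (r = 0.926, 0.917 and 0.907).

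The genes that build, cut or bind these proteoglycans were taken from 5 lists with 64 genes, of which 60 were tested between fibroblasts and SMCs. In all, 26 were higher in fibroblasts and 5 in SMCs, beside 16.2% and 10.3% of all genes. Of 9 tested genes for processing and cleavage, 7 were higher in fibroblasts and 0 in SMCs. *Pcolce*, an enhancer of procollagen C-proteinase, was at 1179 and 1180.2 CPM against 20.8 and 25.4 CPM (log2 fold change 5.65 ± 0.17). The proteases *Mmp3* (4.89 ± 0.25), *Adamts5* (4.34 ± 0.19) and *Mmp2* (4.0 ± 0.12) followed.

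For chondroitin and dermatan sulfate chain synthesis, 8 of 24 tested genes were higher in fibroblasts and 3 in SMCs, the latter a share near the 10.3% of all genes. Fibroblasts were higher in the sulfotransferases *Chst7* (3.86 ± 0.34) and *Chst15* (1.83 ± 0.34), in *Papss2*, which makes the sulfate donor (3.06 ± 0.18), and in the chain polymerising factor *Chpf* (1.53 ± 0.11). SMCs were higher in the chondroitin synthase *Chsy3* (-2.99 ± 0.21), the sulfotransferase *Chst3* (-2.92 ± 0.26) and the initiating transferase *Csgalnact1* (-1.88 ± 0.29). For keratan sulfate synthesis 2 of 6 genes were higher in fibroblasts, *Chst1* (4.56 ± 0.47) and *B4galt1* (1.44 ± 0.13), and 0 in SMCs. Of 15 receptors and bound signals, 8 were higher in fibroblasts, with *Met* (4.86 ± 0.45), *Kdr* (2.54 ± 0.48), *Egfr* (2.51 ± 0.15) and *Lrp1* (2.28 ± 0.16) leading by fold change. In fibroblasts *Met* was only at 6.03 and 8.60 CPM and *Kdr*, an endothelial marker, at 2.91 and 2.87 CPM, beside 1386 and 1344 CPM of *Lrp1*. The part of free RNA in these low values was not tested. *Erbb4* was higher in SMCs (-5.08 ± 0.49), at 9.80 and 8.98 CPM against 0.215 and 0.318 CPM.

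The counts among 6 tested relatives of the family were near the 16.2% and 10.3% of all genes. There 1 was higher in fibroblasts, *Tsku* (4.17 ± 0.37), and 1 in SMCs. The latter was *Optc*, which encodes opticin and lies next to *Prelp*. It was at 188 and 178 CPM in SMCs and at 2.91 and 2.55 CPM in fibroblasts (log2 fold change -6.07 ± 0.19, edgeR adjusted p = 4.88e-17). Among SMC subsets *Optc* was at 264 and 243 CPM in the *Hand2os1* subset and 106 and 105 CPM in the *Mdga2* subset. It was at 33.2 and 29.5 CPM in the *Mmp3* subset and 16.7 and 14.4 CPM in the *Hhip* subset. *Prelp* did not share this order, being highest in the *Mmp3* subset among the subsets named here. *Ecm2* was shared, with 327 and 288 CPM in fibroblasts and 336 and 315 CPM in SMCs. *Kera*, between *Lum* and *Epyc*, had 1 UMI in fibroblasts of aorta 1 and 0 in those of aorta 2.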

How the data were processed

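The values are raw UMI counts per cell, deposited by the authors, who used Cell Ranger and the mouse genome mm10 with the reporter sequences added. Cells were kept if they had over 200 genes, between 1000 and 25000 UMIs and less than 10% mitochondrial UMIs, and 205 and 84 doublets called by Scrublet were removed. Cells of both aortas were clustered with scanpy 1.11.5 (2000 variable genes, 30 principal components, 15 neighbours, Leiden resolution 1) without the 10 genes, the pathway lists, the reporters and mitochondrial genes. Clusters were named from marker lists, needing 3 markers detected in 25% of cells. A cluster stayed unnamed with at least 2 leading markers of other classes, a limit set after clusters were seen, or with median UMIs under 33.3% of its aorta and no own marker leading. Names are marker-based and can differ from the study's. Sums of UMIs per cell type and aorta were formed and all 7 types fitted together in edgeR 4.0.16 (TMM, filterByExpr, cell type as the only term), since cells are not replicates. P-values weigh a difference against the spread between 2 aortas, estimated over all 7 types together and not from the 2 types compared alone. Named genes were all 10 members, up to 4 called genes per list and direction with at least 50 UMIs, and the 3 genes closest in pattern. Members and lists were chosen with earlier results of these data known. The fits were checked on simulated counts. Alternatives are given in the closing section.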

Additional observations from a re-analysis of the deposited data

Results flagged for a closer look

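A cluster of 801 cells stayed unnamed and entered no comparison because its median UMI count was only 33.05% of that of its aorta and none of the SMC markers led it. It was led by *Chgb*, *Chga* and *Igfbp2* and carried *Bgn* at a mean of 2483 CPM (2435 and 2531), *Ogn* at 717 CPM (786 and 648) and *Prelp* at 179 CPM (173 and 185), above the lymphocyte levels of 119 and 163, 28.0 and 32.4, and 19.6 and 9.67 CPM. The reporter eGFP, which no comparison used, was at a mean of 894 CPM in the *Chrm2*, *Mab21l2* and *Tfap2b* fibroblasts and 1345 CPM in the fibroblast subset led by *Trbc2*, *Trbc1* and *Cd8b1*, against 131 and 223 CPM in lymphocytes. With 2 aortas in 1 group, no group was large enough for a test of outlying samples.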

How the results depend on the processing

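The 93 recomputed counts of members, which cover both directions between fibroblasts and SMCs or mesothelial cells but over lymphocytes only genes called higher, and the 39 of pathway genes stayed within 1.5 times of the value given. Of genes called lower than in lymphocytes, *Lum* in mesothelial cells was lost with doublets kept, and *Fmod* in endothelial cells was added with 5000 to 25000 UMIs and with doublets kept. By contrast, all 20 recomputed shares of cells with a UMI and 26 of 90 shares of UMIs moved by more than the spread between aortas. The share of fibroblasts with *Lum*, for example, was 57.1% as a mean, 70.9% at 2000 UMIs and 31.7% with at least 2 UMIs required. The 9 genes higher in fibroblasts than SMCs were called under each of the 14 alternatives. The count against lymphocytes was 5 to 8 for SMCs, 7 for mesothelial cells and 3 to 4 for endothelial cells, and the count against mesothelial cells was 8 to 10. Counting the low-UMI cluster as SMCs and leaving out mixed subsets were alternatives chosen after seeing the data, as were all those for the pathway genes, and the cluster changed no call of a member. *Bgn* in fibroblasts over SMCs changed sign with 5000 to 25000 UMIs (-0.039), with only the 2 types fitted (-0.0063) and with the marker gate (-0.066). Over lymphocytes, *Dcn* in SMCs changed sign with 5000 to 25000 UMIs (-0.90), at Leiden resolution 0.5 (-0.34) and without mixed subsets (-1.09). So did *Lum* with 5000 to 25000 UMIs (-0.56) and without mixed subsets (-0.80), and *Fmod* with 5000 to 25000 UMIs (-0.65), with doublets kept (-0.10), at resolution 0.5 (-0.51) and without mixed subsets (-0.83). With doublets kept, *Aspn* turned to 0.63 in mesothelial cells and to -0.69 in endothelial cells, and *Podn* to -0.071 in endothelial cells. The cause was not tested, except that leaving out mixed subsets removes the SMCs richest in *Dcn* and *Lum*. With the aorta as replicate block, 8 genes rather than 7 were called higher in SMCs than lymphocytes, *Dcn* being added (1.07, edgeR adjusted p = 0.00917), and no other call changed. *Dcn* in SMCs was likewise added without a gene filter and with only the 2 types fitted. RLE scaling moved the median of all genes between fibroblasts and SMCs by 0.24 on the log2 scale and changed no call of a member. With 1 aorta left out no test can be made, since no residual degrees of freedom remain, and the log2 fold changes of fibroblasts over SMCs kept their direction, except that of *Bgn* (-0.064 and 0.18). Among shares of UMIs from fibroblasts, that of *Epyc* moved from 98.2% to 86.3% with 5000 to 25000 UMIs. With the same setting that of *Dcn* moved from 89.8% to 79.7%.

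The precision is limited by 2 aortas of 1 group, by names rebuilt from markers and by free RNA, which lymphocytes measure only in part. Rare genes such as *Epyc* rest on few UMIs.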
